A study of Mus musculus with 18 samples.

Results

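The 10 BCL-2 family genes described here set the balance between survival and mitochondrial cell death in lymphocytes. They are Bcl2, Bcl2l1 and Mcl1, which encode anti-apoptotic proteins, Bcl2l11, Bbc3, Pmaip1, Bid and Bad, which encode BH3-only proteins, and Bax and Bak1, which encode the effectors. They were found by gene symbol, and 10 of 10 were present among the 23337 genes of the count table and passed the filter on low counts. RNA-seq was carried out on thymic NKT1, NKT2 and NKT17 cells, the functional subsets of iNKT cells (T cells with an invariant receptor for lipids on CD1d), from WT and SKG mice on the BALB/c background. SKG mice carry a spontaneous point mutation in Zap70, the kinase that couples the T cell antigen receptor (TCR) to its downstream signals, and read counts per gene do not show a point mutation. Each of the 6 groups (WT NKT1, WT NKT2, WT NKT17, SKG NKT1, SKG NKT2 and SKG NKT17) had 3 libraries, 18 in all. Cells that bound the CD1d tetramer were sorted as ICOS-low CD49a+ (NKT1), as CD49a- Sdc-1- ICOS-high CD4-high TCRβ-high (NKT2) or as CD49a- ICOS-high Sdc-1+ (NKT17), so the genes for these surface proteins were used to make the groups. WT and SKG animals were F3 mice from WT and SKG lines kept apart after an F2 of BALB/cJ and SKG, so the genotypes were not littermates. The age and number of the animals were not given in the sources used here, and the labels do not say that the libraries of a group came from separate animals, so p-values measure the spread between these libraries.

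Anti-apoptotic BCL-2, BCL-xL (the product of Bcl2l1) and MCL-1 hold the effectors BAX and BAK in check at the mitochondrial outer membrane. BH3-only proteins such as BIM (Bcl2l11), PUMA (Bbc3) and NOXA (Pmaip1) are raised or released by cytokine withdrawal, DNA damage or strong TCR signals, bind the anti-apoptotic proteins through a short helix called the BH3 region, and so free the effectors to open the membrane. In developing T cells, BIM takes part in negative selection, and cytokine signals that maintain BCL-2 keep mature cells alive.

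The BH3 region is the feature through which these proteins bind each other, and its core is a leucine, 3 variable residues, a small residue and an aspartate. The coding bases of that core are given for the 9 members in which a search of the annotated coding sequence found a single match. The stretches are from the GENCODE M1 transcripts on NCBIM37 (mm9), 30 bases each, written 5′ to 3′ on the coding strand, with the 6 codons of the core in capitals.
Bcl2, chr1:108609155-108609184, minus strand, exon 1: ctgaccCTCCGCCGGGCTGGGGATgacttc
Bcl2l1, chr2:152655436-152655465, minus strand, exon 2: caagcgCTGAGAGAGGCAGGCGATgagttt
Mcl1, chr3:95463353-95463382, plus strand, exon 2: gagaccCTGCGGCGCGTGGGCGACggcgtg
Bcl2l11, chr2:127972880-127972909, plus strand, exon 3: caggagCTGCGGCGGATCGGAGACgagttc
Bbc3, chr7:16899116-16899145, plus strand, exon 3: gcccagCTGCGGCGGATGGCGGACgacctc
Bid, chr6:120847310-120847339, minus strand, exon 4: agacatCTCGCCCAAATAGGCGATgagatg
Bad, chr19:7025276-7025305, plus strand, exon 3: cgtgagCTCCGAAGGATGAGCGATgagttt
Bax, chr7:52721370-52721399, minus strand, exon 3: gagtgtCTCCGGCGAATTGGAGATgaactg
Bak1, chr17:27159479-27159508, minus strand, exon 4: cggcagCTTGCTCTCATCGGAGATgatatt
The codons differ between members while the leucine and the aspartate at the ends of the core are shared, since those residues defined the search.

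The libraries held 4391029 to 8895917 reads assigned to genes. Levels are given as CPM, the reads of a gene divided by the total of its library and scaled to a common size by the trimmed mean of M values (TMM), and as CPM per kb of annotated exon wherever 2 genes are compared. A gene was called where the adjusted p of edgeR's quasi-likelihood test, fitted on all 11118 genes that passed the filter, fell below 0.1 with a fold change of 1.5 or more. Errors of levels are SD over 3 libraries, and errors of log2 fold changes are standard errors. The summed levels of the subset markers followed the labels. The sums include genes of proteins used for the sort (Itga1, which encodes CD49a, for NKT1, Icos and Cd4 for NKT2 and Sdc1 for NKT17), so part of this was fixed by the sort. NKT1 markers summed to 3760 to 5140 CPM in the NKT1 libraries and to at most 419 CPM elsewhere, and NKT17 markers to 2970 to 3670 CPM in the NKT17 libraries and to at most 42.3 CPM elsewhere. NKT2 markers summed to 1470 to 3340 CPM in the NKT2 libraries, but also to 1310 to 1500 CPM in the NKT17 libraries, and were lower in the SKG NKT2 libraries (1470 to 2140) than in the WT NKT2 libraries (2890 to 3340). In RNA from sorted populations, fewer cells of a type and less RNA per cell cannot be told apart.

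Per kb of exon, Bax was the most abundant of the 10 messages in 5 of the 6 groups, at 70.1 to 103 CPM per kb, and Bcl2 was the most abundant in SKG NKT1 cells, at 85.35 CPM per kb by mean. Bcl2 also had the widest range of levels. Its group means ran from 11.6 ± 7.45 CPM in WT NKT2 cells to 614 ± 23.6 CPM in SKG NKT1 cells, a ratio of 52.7, whereas each effector stayed within a much narrower range. The summed level of the 3 anti-apoptotic messages was 102 ± 34.3 CPM per kb in WT NKT1 and 136 ± 18.6 in SKG NKT1 cells, against 25.3 ± 19.3 in WT NKT2 and 39.5 ± 32.3 in WT NKT17 cells. Bcl2 made up 45.4% ± 13.2 of that sum in WT NKT1 and 63.7% ± 9.06 in SKG NKT1 cells, but 6.78% to 13.4% on average in the other 4 groups. There Mcl1 made up most of the sum, at 68.3% to 76.9% on average. The sum leaves out the A1 survival genes, of which Bcl2a1b had a mean of 113.7 CPM in WT NKT2 cells (not scaled by length). The libraries of a group agreed closely for Bax, whose within-group SD on the log2 CPM scale was 0.14, and poorly for Pmaip1 and Mcl1, with SDs of 1.00 and 0.96, against a median of 0.28 over all genes tested.

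**Figure D1:**
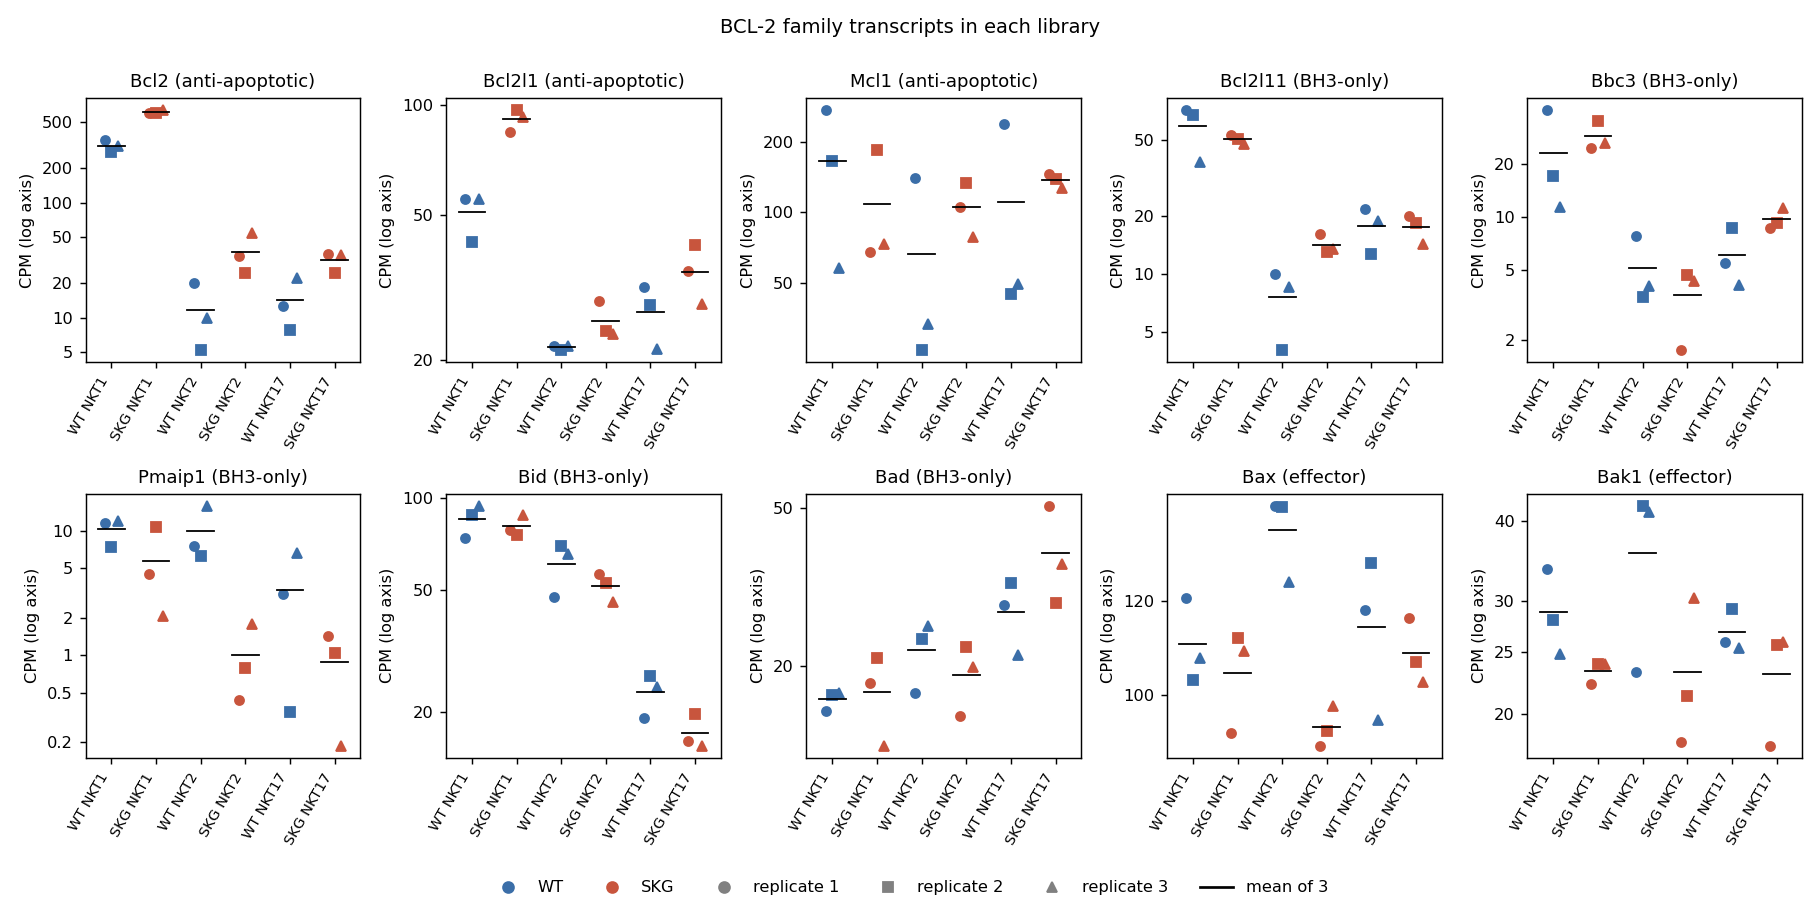
Levels of the 10 BCL-2 family members in each library, as TMM-scaled CPM on a log axis, by group, with 1 point per library and a bar at the group mean. Bcl2 is high in the NKT1 groups (275 to 641 CPM) and at 5.24 to 54.0 CPM elsewhere, whereas the Bax libraries all lie between 90.5 and 144 CPM.

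The first question was how the survival genes differ between the subsets of a normal thymus. In WT mice, 4 of the 10 members were called between NKT1 and NKT2 cells, all higher in NKT1, where 27.5% of all genes tested were called and 13.7% were called higher. Between NKT1 and NKT17 cells 7 of 10 were called, 6 of them higher in NKT1, against 24.7% of all genes (11.2% higher and 13.5% lower). Between NKT17 and NKT2 cells 2 of 10 were called, 1 higher and 1 lower, a share equal to the 20% of all genes (11% higher and 8.97% lower). The 3 comparisons share their libraries. The median log2 difference over the 10 members was 0.86, 1.25 and 0.29 in the same order.

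Bcl2, the archetypal survival gene of mature lymphocytes, stood at 353, 275 and 310 CPM in the 3 WT NKT1 libraries. The WT NKT2 libraries had 19.8, 5.24 and 9.86 CPM. The WT NKT17 libraries had 12.7, 7.83 and 22.2 CPM. Every NKT1 library lay more than 10-fold above every other WT library, and the NKT2 and NKT17 libraries overlapped. The log2 difference was 4.77 ± 0.45 between NKT1 and NKT2 (27.3-fold, adjusted p = 2.58e-06) and 4.43 ± 0.44 between NKT1 and NKT17 (adjusted p = 3.41e-06). For NKT17 against NKT2 it was 0.34, with a 95% interval of −0.66 to 1.34 (adjusted p = 0.678), and did not pass the test.

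Bcl2l1, which encodes BCL-xL, the anti-apoptotic protein that protects immature thymocytes, stood at 55.3, 42.2 and 55.4 CPM in WT NKT1 cells. In WT NKT2 cells it stood at 21.9, 21.3 and 21.8 CPM, and in WT NKT17 cells at 31.6, 28.3 and 21.4 CPM. The NKT1 libraries were above all others, and the log2 difference was 1.24 against NKT2 (adjusted p = 1.43e-05) and 0.92 against NKT17 (adjusted p = 0.000384). Mcl1, which encodes a short-lived survival protein, differed as much within a WT group as between them, and its values are given further below, beside the library titles.

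Among the BH3-only genes, Bcl2l11 and Bbc3 were, like Bcl2, highest in NKT1 cells. Bcl2l11, which encodes BIM, stood at 71.4, 66.8 and 38.3 CPM in WT NKT1 cells, at 10.0, 4.02 and 8.57 CPM in WT NKT2 cells and at 21.9, 12.7 and 18.8 CPM in WT NKT17 cells. None of the 3 groups overlapped, with NKT1 highest and NKT2 lowest. The log2 difference was 2.97 for NKT1 against NKT2 (adjusted p = 5e-08), 1.73 for NKT1 against NKT17 (adjusted p = 3.04e-05) and 1.24 for NKT17 against NKT2 (adjusted p = 0.00319).

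Bbc3, which encodes the p53 target PUMA, stood at 40.4, 17.0 and 11.3 CPM in WT NKT1 cells, a spread of more than 3-fold. It stood at 7.77, 3.50 and 4.04 CPM in WT NKT2 and at 5.47, 8.69 and 4.12 CPM in WT NKT17 cells. All NKT1 libraries were above the others, and the log2 difference was 2.19 against NKT2 (adjusted p = 0.000472) and 1.93 against NKT17 (adjusted p = 0.00137). The order of the NKT2 and NKT17 libraries was not resolved, since they overlapped.

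Bid encodes a BH3-only protein that is cut and activated by caspase-8 downstream of death receptors and by granzyme B. It stood at 73.9, 88.0 and 94.2 CPM in WT NKT1, at 47.4, 69.7 and 65.5 CPM in WT NKT2 and at 19.1, 26.3 and 24.3 CPM in WT NKT17 cells. The NKT17 libraries were below all others, with a log2 difference of 1.87 for NKT1 against NKT17 (adjusted p = 1.43e-08) and of −1.39 for NKT17 against NKT2 (adjusted p = 2.23e-06). Between NKT1 and NKT2 the adjusted p was 0.03 but the difference, 0.48 on the log2 scale, was under the fold minimum. Bad encodes a BH3-only protein whose activity is held down by phosphorylation, and ran the other way. It stood at 15.5, 17.0 and 17.2 CPM in WT NKT1 and at 28.5, 32.3 and 21.4 CPM in WT NKT17 cells, without overlap, and was lower in NKT1 by a log2 difference of −0.73 (adjusted p = 0.0351). That call was lost without the WT NKT17 library of replicate 2 (adjusted p = 0.118).

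Pmaip1, which encodes NOXA, the BH3-only protein that mainly antagonises MCL-1, stood at 11.5, 7.45 and 12.0 CPM in WT NKT1 and at 7.56, 6.29 and 15.8 CPM in WT NKT2 cells. It stood at 3.12, 0.348 and 6.59 CPM in WT NKT17 cells, where the lowest library held 2 reads. Its difference between NKT1 and NKT17, 1.59 ± 0.69 on the log2 scale, passed the test narrowly (adjusted p = 0.0966) and was lost in 10 of 15 alternatives, with adjusted p up to 0.297. Against NKT2 the NKT17 difference did not pass in the main, unpaired fit. It passed without WT NKT17 replicate 3 (−2.54, adjusted p = 0.0323) and with the mark in the library titles as a block (−1.68, adjusted p = 0.0585). The effectors were not called between any pair of WT subsets. Bax, whose product forms pores in the outer mitochondrial membrane, ranged from 95.1 to 144 CPM over the 9 WT libraries, and Bak1, its close functional relative, from 23.3 to 42.3 CPM. Without WT NKT2 replicate 1, the lowest Bak1 library, Bak1 was lower in NKT17 than in NKT2 (−0.64, adjusted p = 0.0605).

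In SKG mice the same subset differences were measured in other libraries. Between NKT1 and NKT2 cells 6 of 10 members were called, all higher in NKT1 (18.7% of all genes called, 10% higher). Between NKT1 and NKT17 cells 7 of 10 were called, 6 higher and Bad lower (22.8% of all genes, 10.2% higher and 12.5% lower). Between NKT17 and NKT2 cells 3 of 10 were called, Bbc3 and Bad higher and Bid lower in NKT17 (18.8% of all genes, 10.5% higher and 8.27% lower).

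Bcl2 in SKG cells stood at 601, 599 and 641 CPM in NKT1, at 34.1, 24.3 and 54.0 CPM in NKT2 and at 36.0, 24.6 and 34.9 CPM in NKT17 libraries. The NKT1 libraries again stood far above the rest, and NKT2 and NKT17 overlapped. The log2 difference was 4.03 against NKT2 (adjusted p = 9.58e-06) and 4.27 against NKT17 (adjusted p = 4.11e-06). Bcl2l1 was higher in NKT1 by 1.84 against NKT2 and by 1.39 against NKT17 on the log2 scale (adjusted p = 7.38e-08 and 2.31e-06). Bcl2l11 was higher in NKT1 by 1.83 and 1.51 (adjusted p = 3.29e-05 and 0.000181).

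Bbc3 in SKG cells stood at 24.7, 35.2 and 26.3 CPM in NKT1, at 1.76, 4.70 and 4.34 CPM in NKT2 and at 8.64, 9.25 and 11.3 CPM in NKT17 libraries. None of the 3 groups overlapped, and all pairs were called, including NKT17 above NKT2 by 1.41 (adjusted p = 0.0307), although that call was lost without the SKG NKT2 library of replicate 1 (adjusted p = 0.146). Bid was again lowest in NKT17 cells, at 16.2, 19.7 and 15.6 CPM, with log2 differences of 2.24 from NKT1 and −1.59 for NKT17 against NKT2 (adjusted p = 1.58e-09 and 4.81e-07). Bad was again highest in NKT17 cells, at 50.6, 28.8 and 36.2 CPM, with log2 differences of −1.16 for NKT1 against NKT17 and 1.01 for NKT17 against NKT2 (adjusted p = 0.00125 and 0.00473). Pmaip1 in SKG cells was higher in NKT1 by 2.43 against NKT2 and by 2.61 against NKT17 (adjusted p = 0.0347 and 0.0186), from 2 to 11 reads in the NKT2 and 1 to 10 reads in the NKT17 libraries. Both of those calls were lost without the SKG NKT1 library of replicate 2, which had the highest Pmaip1 level of its group (adjusted p = 0.217 and 0.132), and the call against NKT2 also without SKG NKT2 replicate 1 or 2 (adjusted p = 0.134 and 0.112). Bid was higher in NKT1 than in NKT2 by 0.65 (adjusted p = 0.0075), but by 0.57, under the fold minimum, without replicate 3 of either group.

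**Figure D2:**
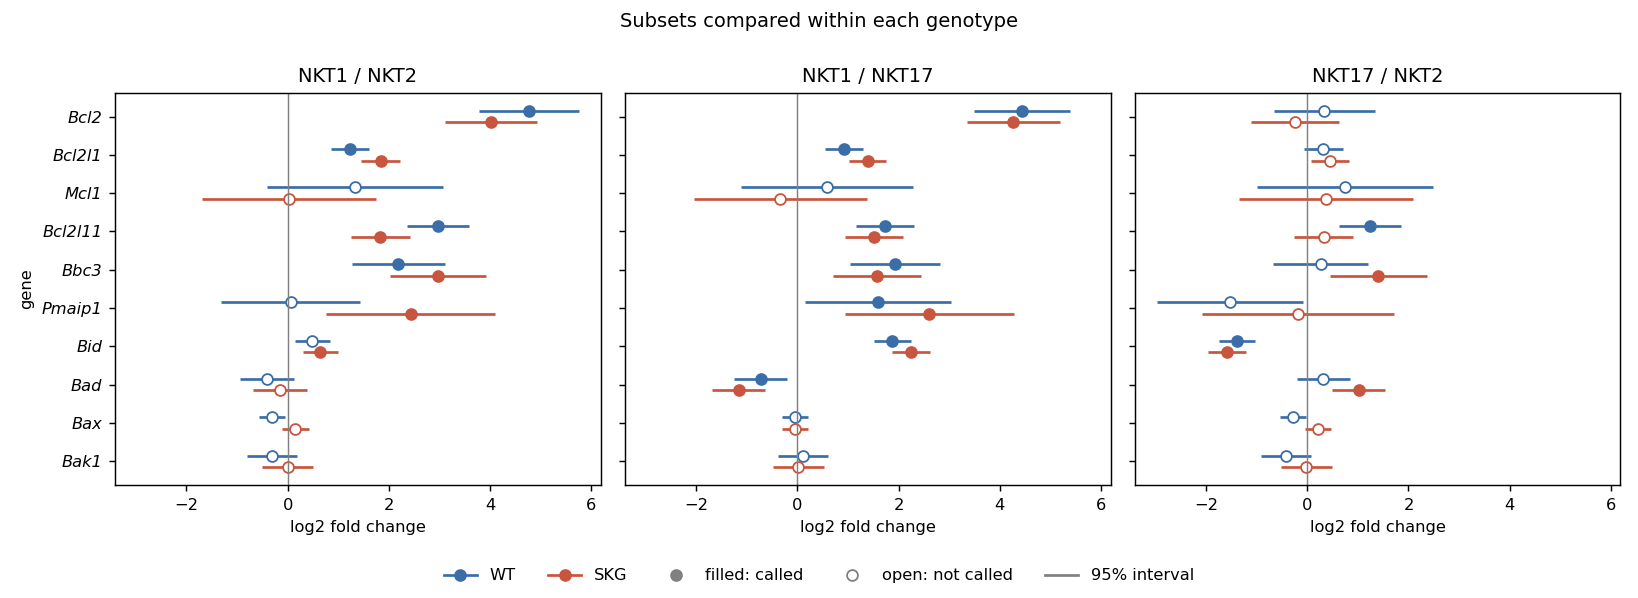
Log2 differences between subsets for the 10 members, within WT and within SKG libraries, with 95% intervals and called members as filled points. Bcl2 is the farthest from 0 in the comparisons of NKT1 with NKT2 and with NKT17 (4.03 to 4.77), and the points of Bax and Bak1 are all open and near 0.

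The main comparison of the study was between SKG and WT cells of the same subset. In NKT1 cells 1 of 10 members was called, higher in SKG (3.27% of all genes called, 1.46% higher). In NKT2 cells 3 of 10 were called, 2 higher and 1 lower (7.95% of all genes, 3.9% higher and 4.05% lower), and in NKT17 cells 0 of 10 (8.37% of all genes). At an unadjusted p under 0.05 the counts were 2, 5 and 3 of 10, and DESeq2 called 1 member in NKT17 cells. The SKG and WT libraries did not overlap for 3 members in NKT1, 5 in NKT2 and 1 in NKT17, against 16.3%, 30.1% and 26.9% of all genes tested. The median log2 difference over the members was −0.08, −0.22 and 0.15, beside −0.01, 0.00 and 0.00 over all genes. Of the differences of the SKG effect between subsets, edgeR called 0 of 10 members for NKT2 minus NKT1, for NKT17 minus NKT1 and for NKT17 minus NKT2 (3.87%, 4.17% and 2.19% of all genes), with 4, 0 and 2 members at an unadjusted p under 0.05 and 0 called by DESeq2, so a call in 1 subset and not in another does not show that the subsets differ.

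Bcl2 was the only member whose SKG libraries all lay above the WT libraries in all 3 subsets. In NKT2 cells it rose from 11.6 ± 7.45 CPM in WT to 37.5 ± 15.1 CPM in SKG, by 1.72 ± 0.44 on the log2 scale (3.29-fold, adjusted p = 0.0294), with the lowest SKG library at 24.3 and the highest WT library at 19.8 CPM. That call was lost without WT NKT2 replicate 3 (adjusted p = 0.111) or without SKG NKT2 replicate 3 (adjusted p = 0.129). In NKT1 cells, where the mean was 313 ± 38.9 CPM in WT and 614 ± 23.6 CPM in SKG, the log2 difference was 0.97 ± 0.37 (95% interval 0.18 to 1.77) and did not pass the test (adjusted p = 0.242). With the fit on the 6 NKT1 libraries alone it passed (adjusted p = 0.000536). In NKT17 cells the means were 14.3 ± 7.33 and 31.8 ± 6.28 CPM, and the log2 difference of 1.14 ± 0.42 (95% interval 0.22 to 2.05) did not pass (adjusted p = 0.131). It passed by DESeq2 (adjusted p = 0.0954) and in the fit on the NKT17 libraries alone (adjusted p = 0.0386). The highest WT NKT17 library (22.2 CPM) was close to the lowest SKG library (24.6 CPM), and without it, replicate 3, the difference was 1.65 (adjusted p = 0.0519). The difference of the SKG effect between subsets was not shown: it was 0.75 for NKT2 minus NKT1 (95% interval −0.49 to 1.98) and −0.58 for NKT17 minus NKT2 (95% interval −1.90 to 0.74).

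Bcl2l1 was the member called in NKT1 cells. It stood at 84.5, 97.1 and 92.7 CPM in the SKG NKT1 libraries against 55.3, 42.2 and 55.4 CPM in WT, without overlap. It rose by 0.84 ± 0.18 on the log2 scale (adjusted p = 0.00781), and the call held under all 16 alternatives. In NKT2 cells the SKG libraries had 29.1, 24.1 and 23.6 CPM against 21.3 to 21.9 CPM in WT, again without overlap but with a difference of 0.24 that did not pass (adjusted p = 0.523). In NKT17 cells the SKG libraries had 35.0, 41.4 and 28.5 CPM, which overlapped the WT libraries (21.4 to 31.6 CPM). The SKG effect in NKT2 minus that in NKT1 was −0.60 (adjusted p = 0.271), so a difference between the subsets was not shown.

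Of the BH3-only genes, 2 were called in NKT2 cells, in opposite directions. Pmaip1 fell from 7.56, 6.29 and 15.8 CPM in the WT NKT2 libraries (36 to 98 reads) to 0.441, 0.783 and 1.77 CPM in the SKG NKT2 libraries (2 to 11 reads). The groups were far apart, with every SKG library below every WT library by more than 3-fold. The log2 difference was −3.23 ± 0.79 (9.4-fold lower, adjusted p = 0.0118), and the call held in every alternative that gave a value. In NKT17 cells Pmaip1 was 3.12, 0.348 and 6.59 CPM in WT and 1.42, 1.05 and 0.188 CPM in SKG libraries. These overlapped, and the log2 difference of −1.88 did not pass (adjusted p = 0.176), although it did without WT NKT17 replicate 2 (adjusted p = 0.0441). In NKT1 cells the SKG libraries had 4.46, 10.6 and 2.08 CPM against 7.45 to 12.0 CPM in WT and also overlapped. The SKG effect in NKT2 minus that in NKT1 was −2.37 (adjusted p = 0.297).

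Bcl2l11 rose in SKG NKT2 cells, from 10.0, 4.02 and 8.57 CPM in WT to 16.1, 12.9 and 13.5 CPM in SKG libraries, without overlap. The log2 difference was 0.91 ± 0.30 (1.88-fold, adjusted p = 0.065). The call was lost on leaving out any of 4 of the 6 NKT2 libraries, namely WT replicate 2 and SKG replicates 1, 2 and 3 (adjusted p up to 0.297). The log2 difference was then 0.61 without WT replicate 2, and 0.81, 0.98 and 0.94 without SKG replicates 1, 2 and 3. In NKT1 cells the SKG libraries (47.6 to 52.8 CPM) lay within the WT range (38.3 to 71.4 CPM), and in NKT17 cells the groups also overlapped. Bbc3, Bid and Bad were not called in any subset between genotypes. Bid in NKT17 cells had the nearest result, with 19.1, 26.3 and 24.3 CPM in WT and 16.2, 19.7 and 15.6 CPM in SKG libraries and a log2 difference of −0.44 (adjusted p = 0.15). Bad in NKT17 cells stood at 21.4 to 32.3 CPM in WT and 28.8 to 50.6 CPM in SKG libraries, with a log2 difference of 0.50 (adjusted p = 0.252).

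Bax was lower in SKG than in WT NKT2 cells, at 90.5, 93.2 and 97.8 CPM against 144, 144 and 124 CPM. All SKG libraries were below all WT libraries, and the spread within each group was small. The log2 difference was −0.55 ± 0.12 (adjusted p = 0.00548), a 1.47-fold change that was just under the fold minimum, so Bax was not called. With no fold minimum it was called, as were 11.4% of all genes, and leaving out replicate 3 of either group also carried it past the minimum. In NKT1 cells Bak1 stood at 33.7, 28.1 and 24.8 CPM in WT and at 22.3, 23.95 and 23.9 CPM in SKG libraries, without overlap, but with a log2 difference of −0.31 that did not pass (adjusted p = 0.647). In NKT1 and NKT17 cells the Bax libraries of the genotypes overlapped, and the SKG effect in NKT2 minus that in NKT1 was −0.47 (adjusted p = 0.19). Bak1 in NKT2 cells stood at 23.3, 42.3 and 41.4 CPM in WT and 18.1, 21.3 and 30.4 CPM in SKG libraries, which overlapped through WT replicate 1. Its log2 difference of −0.61 did not pass (adjusted p = 0.131) but did without that library (adjusted p = 0.0342). The sum of the effectors in NKT2 cells was 118 ± 7.54 CPM per kb in WT and 79.7 ± 5.39 CPM per kb in SKG libraries.

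Markers of other cells and of cell handling moved with some of these results. In NKT1 cells, where Bcl2l1 was called, the NKT1 markers summed to 4700 to 5140 CPM in WT and 3760 to 4160 CPM in SKG libraries, and the NKT17 markers to 10.9 to 20 CPM and 30.1 to 42.3 CPM. The B cell markers of NKT1 cells summed to 1.24 to 2.41 CPM in WT and 2.95 to 5.95 CPM in SKG libraries, with Ebf1 at 0 in both. The myeloid markers summed to 200 to 218 CPM and 149 to 187 CPM, with Csf1r, Itgam and Cd14 at 0 in both. Nearly all of that sum was from Cst3 (means of 205.7 CPM in WT and 166.3 CPM in SKG). In NKT2 cells, where 3 members were called, the immediate-early genes, which respond to stimulation and to cell isolation, summed to 1120 to 2340 CPM in WT and 2530 to 3490 CPM in SKG libraries. The NKT17 markers summed to 8.04 to 11 CPM in WT NKT2 and 20.9 to 33.7 CPM in SKG NKT2 libraries, and the NKT2 markers were lower in SKG as given above. The markers of double-positive thymocytes summed to 1.64 to 1.94 CPM in WT NKT2 and 4.18 to 5.62 CPM in SKG NKT2 libraries, with Rag1 at 0 in both. In NKT17 cells the B cell markers summed to 7.82 to 11.1 CPM in WT and 24.8 to 40.7 CPM in SKG libraries, nearly all from Cd79b, with Ms4a1 and Ebf1 at 0 in the SKG libraries. The markers of double-positive thymocytes summed to 2.93 to 12.5 CPM in WT and 13.8 to 37.7 CPM in SKG NKT17 libraries, nearly all from Cd8b1, with Rag1, Rag2, Dntt and Arpp21 at 0 in the SKG libraries. The part of these differences in the results for the members was not tested.

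**Figure D3:**
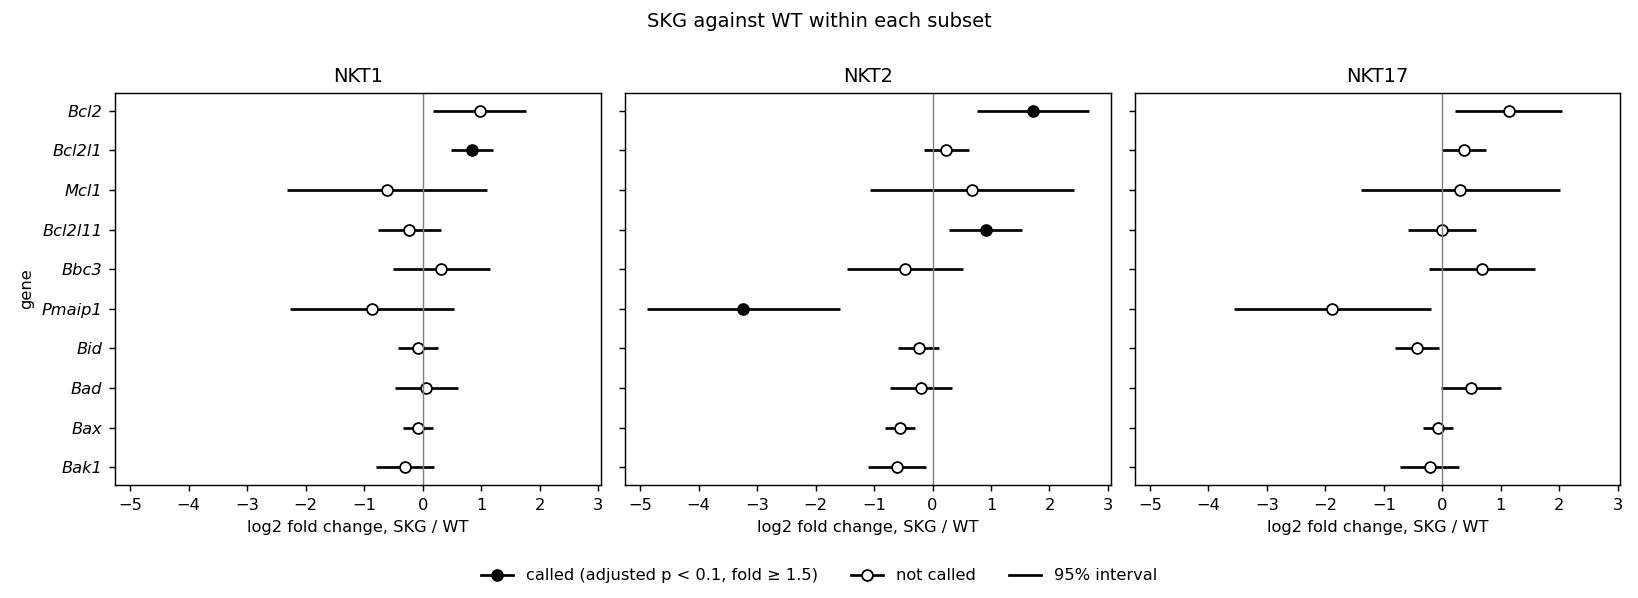
Log2 differences between SKG and WT libraries for the 10 members in NKT1, NKT2 and NKT17 cells, with 95% intervals and called members marked. Bcl2 lies to the right of 0 in all 3 subsets (0.97, 1.72 and 1.14), and Pmaip1 lies farthest to the left in NKT2 cells (−3.23).

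The levels of Mcl1 are given with the titles of the libraries, because the highest level of each WT subset was in libraries of 1 title mark. The titles of the WT libraries carry the marks 7_5, 7_10 and 7_11 for replicates 1, 2 and 3, and those of the SKG libraries 7_10, 7_11 and 7_21, and the labels do not say what the marks stand for. In WT cells Mcl1 stood at 272, 165 and 57.9 CPM in NKT1, at 139.8, 26.0 and 33.5 CPM in NKT2 and at 238, 45.0 and 49.4 CPM in NKT17 libraries. The 7_5 library had the highest Mcl1 level of each WT subset, and no SKG library carries that mark. Pmaip1 also kept 1 order of marks in the 3 WT subsets, highest in 7_11 and lowest in 7_10. In SKG cells Mcl1 stood at 67.8, 184 and 73.6 CPM in NKT1, at 105, 134 and 78.8 CPM in NKT2 and at 145, 138 and 127 CPM in NKT17 libraries. The SKG and WT libraries overlapped in all 3 subsets, with log2 differences of −0.61 (95% interval −2.32 to 1.10, none of the 3 called) in NKT1, 0.68 (−1.06 to 2.42) in NKT2 and 0.31 (−1.40 to 2.02) in NKT17. Within the marks that both genotypes share, SKG minus WT was 2.01 (7_10) and 2.00 (7_11) in NKT2, 1.69 and 1.48 in NKT17, and −1.28 and 1.67 in NKT1 cells, with 1 library on each side. Without the 3 WT libraries of 7_5, an alternative chosen after the data were seen, the NKT2 difference was 1.82 and passed (adjusted p = 0.0768), whereas the NKT17 difference was 1.53 and did not (adjusted p = 0.133). In WT mice Mcl1 was not called between subsets, but it was higher in NKT1 than in NKT2 without WT NKT2 replicate 1, the 7_5 library (2.46, adjusted p = 0.0532), and without the WT libraries of 7_5 (1.88, adjusted p = 0.0379). The direction of the SKG difference in NKT1 cells was not the same in both marks, and the part of the marks in the Mcl1 values was not tested. For Pmaip1 in NKT2 cells the values within the marks were −3.84 and −4.34, and for Bcl2 they were 2.70 and 1.30, so these kept their direction.

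**Figure D4:**
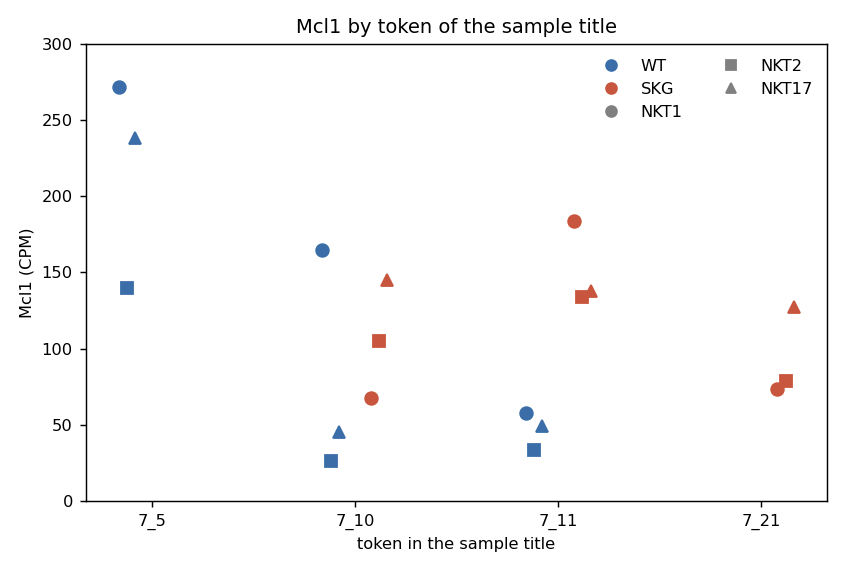
Mcl1 level (CPM) in each library, by the mark (token) in the library title along the horizontal axis, with genotype shown by colour and subset by symbol. The WT libraries marked 7_5 (139.8 to 272 CPM) are the highest of their WT groups, and in NKT2 and NKT17 cells the other WT libraries (26.0 to 49.4 CPM) lie below the SKG libraries (78.8 to 145 CPM).

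The ratio of Bcl2 to Bcl2l11 sets a survival gene against the BH3-only gene that opposes it, and was taken within each library on the CPM scale, without length, so that only its changes between groups are read. On the log2 scale it was 2.46 ± 0.51 in WT NKT1 and 3.61 ± 0.12 in SKG NKT1 libraries. It was 0.52 ± 0.41 in WT NKT2 and 1.33 ± 0.58 in SKG NKT2 libraries, and −0.41 ± 0.57 in WT NKT17 and 0.85 ± 0.44 in SKG NKT17 libraries. The SKG libraries lay above the WT libraries without overlap in NKT1 (lowest SKG 3.51, highest WT 3.02) and in NKT17 cells (0.41 and 0.24), and overlapped in NKT2 cells (0.91 and 0.985). The ratio was not tested. NKT1 cells had the highest ratio in both genotypes, although Bcl2l11 itself was highest there.

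**Figure D5:**
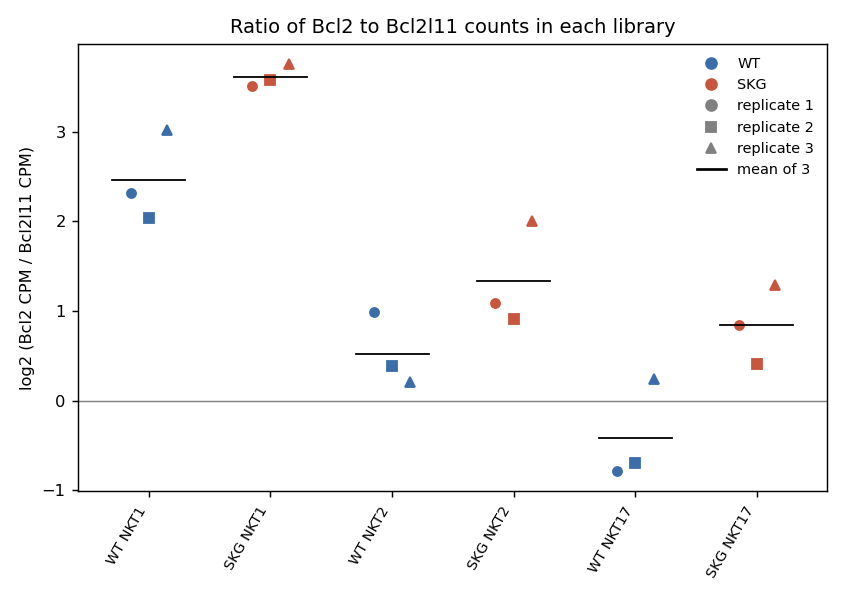
Log2 ratio of the Bcl2 level to the Bcl2l11 level (both in CPM) in each library, by group, with 1 point per library and a bar at the group mean. The NKT1 groups are highest (2.46 in WT and 3.61 in SKG), and each SKG group mean is above the WT mean of its subset.

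For the member of each role with the widest range of group means, the genes with the most similar pattern over the 18 libraries were found by Pearson correlation of log2 CPM. For Bcl2 these were Cd97 (r = 0.972), Hvcn1 (r = 0.965) and Fcgrt (r = 0.962). For Pmaip1 they were Pafah1b2 (r = 0.841) and Spry2 (r = 0.82), and for Bak1 they were Ube2s (r = 0.741), Ints10 (r = 0.721) and Osbpl2 (r = 0.716). The points share their libraries and groups, so these values describe a shared order of levels and no more.

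Of the 15 other BCL-2 family genes listed, 8 passed the filter on low counts. Of these 8, 1, 2 and 2 were called between genotypes in NKT1, NKT2 and NKT17 cells. That was 12.5%, 25% and 25%, against 3.27%, 7.95% and 8.37% of all genes. In NKT1 cells 1 of them was called lower in SKG, which was Bcl2a1d (14.9 against 28.5 CPM, log2 difference −0.93, adjusted p = 0.016), a member of the A1 family of survival genes. In NKT2 cells Bik, a BH3-only gene, was higher in SKG (15.6 against 2.47 CPM, log2 difference 2.64, adjusted p = 7.69e-07). Bcl2a1a was called lower in SKG NKT2 cells, with 0 reads in the 3 SKG libraries and 7 to 21 reads in the WT libraries. In NKT17 cells Bik was again higher (93.4 against 54.6 CPM, 0.77, adjusted p = 0.0225) and Bcl2a1a again lower (4.59 against 46.8 CPM, −3.34, adjusted p = 8.12e-05). Bcl2a1a and Bcl2a1d have near-identical copies between which reads can be split, so their values are uncertain.

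The other genes of the death pathways were described with the same fit. Between genotypes it called 3.27%, 7.95% and 8.37% of all genes in NKT1, NKT2 and NKT17 cells. Of 22 tested genes of the apoptosome, the caspases and their inhibitors, 0 were called in NKT1, where 3 had an unadjusted p under 0.05, and 2 in NKT2 and 2 in NKT17 cells between genotypes. In NKT2 and in NKT17 cells that was 9.09% of the list, near the share of all genes. In NKT2 cells Birc3, an inhibitor of apoptosis, was higher in SKG (91.4 against 59.7 CPM, log2 difference 0.62, adjusted p = 0.0318). Of 11 tested genes of the death receptor pathway, 0 were called in NKT1 cells, where 2 had an unadjusted p under 0.05. In NKT2 cells 2 rose and in NKT17 cells 3 (18.2% and 27.3% of the list). Fasl, the ligand of the death receptor Fas, rose from 13.9 to 94.2 CPM in SKG NKT2 cells (2.75, adjusted p = 2.69e-09) and from 2.36 to 10.7 CPM in SKG NKT17 cells (2.17, adjusted p = 7.98e-06). Fas itself rose in NKT2 (1.33, adjusted p = 0.000473) and in NKT17 cells (0.73, adjusted p = 0.0441). In WT mice Fasl was far higher in NKT1 than in NKT2 cells, at 556 against 13.9 CPM (5.31, adjusted p = 2.04e-14).

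The p53 list, which includes neither Bbc3 nor Pmaip1, had 17 tested genes of p53 and its targets. Of these 17, 3 fell in SKG NKT2 cells and 0 rose (17.6% called, against 7.95% of all genes). These were Plk2 (−3.16, adjusted p = 0.0287), Phlda3 (−1.88, adjusted p = 0.00511) and Ccng1 (−0.74, adjusted p = 0.000155), with a median of −0.42 over the 17 beside 0.00 over all genes. In SKG NKT17 cells Phlda3 fell as well (−1.47, adjusted p = 0.0303). It was the only call of the list there (5.88%, against 8.37% of all genes). Of 8 tested genes of the FOXO factors and of MCL-1 turnover, 0 were called between genotypes in any subset, with 0, 1 and 0 at an unadjusted p under 0.05 in NKT1, NKT2 and NKT17 cells. Over all genes 3.27%, 7.95% and 8.37% were called. Of 6 chains of receptors for survival cytokines, 3 rose and 1 fell in SKG NKT2 cells (66.7% called, against 7.95% of all genes). Il2ra rose from 1.14 to 25.6 CPM (4.42, adjusted p = 1.1e-06), Il4ra from 7.50 to 70.0 CPM (3.20, adjusted p = 9e-09) and Il7r, the receptor chain of the cytokine that maintains BCL-2 in resting T cells, from 505.3 to 1038 CPM (1.04, adjusted p = 2.57e-07). In SKG NKT1 cells Il2ra was lower (11.5 against 27.6 CPM, −1.25, adjusted p = 0.0367), and in SKG NKT17 cells Il4ra was higher (1.29, adjusted p = 0.000314) and Il2rb lower (−0.71, adjusted p = 0.000139). These calls were 16.7% of the 6 chains in NKT1 and 33.3% in NKT17 cells, against 3.27% and 8.37% of all genes.

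The promoters of 9 members (that of Pmaip1 was not searched), 250 bases before to 50 bases after each RefSeq start site on GRCm38.p6, were searched on both strands for the letters GTAAACA (bound by FOXO factors), TTCNNNGAA (STAT factors) and AGGTGTGA (T-box factors). The FOXO letters were in 2 of 15 promoters of these 9 members, beside 3.65% of 32851 promoters, and the STAT and T-box letters in 0 of 15, beside 8.3% and 1.28%. The matches were in Bcl2l11 and Bbc3, which are BH3-only genes and were both highest in NKT1 cells. The promoters of the BH3-only genes Bid and Bad lacked the letters. So did those of Bcl2 and Bcl2l1, which like Bid were also highest in NKT1 cells. The matching stretches are printed 5′ to 3′ on the plus strand with the match in capitals (the reverse complement in Bbc3).
Bcl2l11, chr2:128125788-128126037: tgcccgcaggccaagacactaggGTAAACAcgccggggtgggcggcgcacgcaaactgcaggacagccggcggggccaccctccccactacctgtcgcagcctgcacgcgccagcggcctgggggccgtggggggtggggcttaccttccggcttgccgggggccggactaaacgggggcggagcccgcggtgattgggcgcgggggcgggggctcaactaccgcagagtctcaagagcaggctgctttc
Bbc3, chr7:16310083-16310112: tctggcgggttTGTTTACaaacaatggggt
The first base of the match lay 227 bases before the start site in Bcl2l11 and 167 bases before it in Bbc3. Other start sites of the same genes lacked the letters. A match describes these bases, and none of the data here measured binding.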

How the data were processed

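Poly-A RNA of sorted thymic cells was amplified with a Smart-seq2 type protocol and sequenced as 50-base single-end reads. The deposited values are raw read counts per gene, which the authors made with htseq-count (union mode) after alignment with TopHat and removal of low-complexity, rRNA, tRNA, adapter and spike-in reads. The submitters' processing notes name Bowtie 1.0.0, TopHat 1.4.1 and HTSeq 0.7.1. The study's methods name mm9 and the notes other builds, and the annotation and strand setting were not given in the sources used here, so reads of overlapping antisense genes cannot be told apart. A further 2 columns of the table belong to no sample listed here and were left out of every step.

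Libraries were grouped by the labels. Of 15582 genes with a count, 11118 passed edgeR's filterByExpr (edgeR 4.0.16, limma 3.58.1, R 4.3.3). One quasi-likelihood model with robust dispersion was fitted to the 18 libraries with TMM scaling, and 12 contrasts were tested with Benjamini-Hochberg adjustment over all genes tested (adjusted p under 0.1 and fold of at least 1.5, two-sided), after the study's own thresholds. Log2 CPM used a prior count of 2. Total counts were 4391029 to 8895917 per library, and a count of 2 to 11 reads, as for Pmaip1, has a large sampling error. Replicates of a group differed by more than sampling noise (a chi-square of 5.47 to 24.4 times its degrees of freedom), so none was counted as a repeat. The main fit had no block or pairing in any comparison. Same-numbered WT NKT17 and NKT2 libraries deviated together from their group means in each of the 3 pairs (r of 0.219 to 0.351). The labels give no source of this, and a block by title mark was run only as an alternative. The fit was also run on simulated counts, which held no shared deviation by title mark, so that run cannot speak to the marks. The members and lists were chosen with earlier results of these data known. Named genes of a list were up to 3 called genes with the largest absolute log2 difference, and similar patterns were the 3 most correlated genes. Of the genes these rules select, 2 are not reported here. Alternatives were other scalings and filters, DESeq2 1.42.0, thresholds, a fit on the compared libraries only, a block by title mark and each replicate left out. Gene positions and lengths are from GENCODE M1 (NCBIM37), and promoters from RefSeq (GRCm38.p6).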

Additional observations from a re-analysis of the deposited data

How the results depend on the processing

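The counts of members called between SKG and WT cells moved with the processing. In NKT1 cells the count was 1 and became 2, with Bcl2, in the fit on only the libraries compared, and was 1 to 1 with each replicate left out. In NKT2 cells it was 3, became 5 under the block by title mark and 5 without the 3 WT libraries of 7_5 (chosen after the data were seen), and was 2 to 4 with each replicate left out. In NKT17 cells it was 0, became 1, which was Bcl2, by DESeq2 and in the fit on only the libraries compared, and 1, which was Mcl1, under the block by title mark, and was 0 to 1 with each replicate left out. The counts between subsets stayed within 1.5 times under the alternatives run. For the difference of the SKG effect in NKT2 and NKT1 cells 0 members were called, and 1, Bcl2l11, without WT NKT1 replicate 3 (0 to 1 with each replicate left out).

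Libraries with the same replicate number share a title mark within a genotype, and their deviations from the group means correlated at −0.0612 to 0.351 (median 0.17, 12 of 18 over 0.1), against a median of −0.0972 for different marks. Across genotypes the same mark gave −0.151 to 0.09. Every pair was over 0.1 for NKT17 against NKT2 in WT, and not for the other comparisons, where the mark may still be shared. The main tests of all comparisons, NKT17 against NKT2 in WT included, were unpaired. With the block by title mark Mcl1 was called in NKT2 (1.86, adjusted p = 0.0462) and NKT17 cells (1.56, adjusted p = 0.0921), and Bak1 in NKT2 cells (adjusted p = 0.0612) between genotypes, and Mcl1 between NKT1 and NKT2 in WT (1.61, adjusted p = 0.0223). It changed no other call of a member but that of Pmaip1 for NKT17 against NKT2 in WT.

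Of 33 called results of single members, 25 kept the call under all alternatives, and 0 changed sign. Over all genes, the SKG calls in NKT1 cells fell from 364 to 207 in the fit on only the libraries compared. Calls of a different SKG effect fell from 464 to 278 (NKT17 against NKT1) and from 244 to 155 (NKT17 against NKT2) at adjusted p under 0.05, and to 296 and 157 without single SKG NKT17 libraries. Depth limited Pmaip1 and Bcl2a1a, which had at most 11 and 0 reads in the SKG NKT2 libraries.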
